A study of Homo sapiens with 6 samples.

Results

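The 10 genes described here carry sulfur from methionine to cysteine, make hydrogen sulfide and oxidise it: MAT2A, AHCY, CBS, CTH, GOT1, MPST, SQOR, ETHE1, TST and SUOX. They were chosen by name, and all 10 were found among the 38126 gene IDs of the tables. They were measured by RNA-seq in HK-2, an immortalised epithelial line from the human proximal kidney tubule, grown in keratinocyte medium without serum, supplemented with bovine pituitary extract and EGF. One group of 3 libraries came from untreated cells, and the other group of 3 from cells given phosphoramidon, an inhibitor of zinc metallopeptidases, for 24 h. No dose is stated. The untreated titles contain the letters CSE without explanation. The enzyme encoded by CTH is often abbreviated in the same way, and nothing in the labels links these uses. All libraries come from 1 cell line. Since no label calls the replicates separate cultures, each p-value reflects only how these libraries vary, and that variation may be technical.

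In the methionine cycle, MAT2A makes S-adenosylmethionine, the methyl donor of the cell, and AHCY splits the S-adenosylhomocysteine left after methylation into homocysteine and adenosine. Transsulfuration then joins homocysteine with serine (CBS) and cuts the product to release cysteine (CTH). Both transsulfuration enzymes can also release hydrogen sulfide. So can a separate route in which an aminotransferase such as GOT1 turns cysteine into 3-mercaptopyruvate and MPST takes its sulfur. In mitochondria, SQOR oxidises sulfide and passes the electrons to coenzyme Q, ETHE1 oxidises the resulting persulfide to sulfite, TST moves sulfur between thiosulfate and acceptors, and SUOX turns sulfite into sulfate. The kidney tubule is a known site of cysteine synthesis and sulfide production.

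The promoter windows of CTH and GOT1 are shown because these genes had the largest changes of the 10, in opposite directions. Both are RefSeq windows on GRCh38.p14 from 250 bases before to 50 bases after the transcript start, read 5′ to 3′ on the strand of the gene. They lie at chr1:70411018-70411317 (plus strand) and chr10:99430575-99430874 (minus strand). Capitals mark a match to a searched motif.
CTH: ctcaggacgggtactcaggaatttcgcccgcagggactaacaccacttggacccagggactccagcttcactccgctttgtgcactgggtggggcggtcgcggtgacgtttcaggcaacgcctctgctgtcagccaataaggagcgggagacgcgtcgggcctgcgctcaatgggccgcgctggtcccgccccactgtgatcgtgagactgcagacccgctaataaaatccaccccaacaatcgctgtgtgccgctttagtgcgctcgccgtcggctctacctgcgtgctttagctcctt
GOT1: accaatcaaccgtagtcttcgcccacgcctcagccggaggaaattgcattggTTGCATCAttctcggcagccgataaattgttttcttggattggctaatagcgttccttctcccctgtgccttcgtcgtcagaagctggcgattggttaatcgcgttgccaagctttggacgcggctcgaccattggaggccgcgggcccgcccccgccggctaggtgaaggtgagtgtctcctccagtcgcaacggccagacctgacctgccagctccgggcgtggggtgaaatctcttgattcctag
The motifs searched, on both strands, were TGATGNAA (the C/EBP-ATF response element, bound by ATF4 with a C/EBP partner), TGACNNNGC (the core of the antioxidant response element) and CACGTG (the E-box). Matches to these 3 did not overlap each other in the windows of the 10 genes. The GOT1 window held the first motif on the strand opposite to the gene, starting 198 bases before the transcript start. Of 35116 RefSeq windows of this length, 3.62% held that motif on either strand. The CTH window held no match to the 3 motifs. Of the 10 genes, 8 had windows, 12 in all. The antioxidant element core occurred in 1 of 3 CBS windows and in the ETHE1 window, against 13.3% of all windows. No window of the 10 genes held the E-box, against 7.26% of all windows. A match describes these letters only.

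After phosphoramidon, CTH, MPST, SQOR and AHCY fell, and GOT1 and MAT2A rose. CTH had a log2 fold change of -0.85 and GOT1 of 0.62, while the other 4 called genes moved by 0.51 or less in size. Thus 2 of 10 genes were called higher and 4 lower by limma at an adjusted p below 0.05, where 15.6% and 17.9% of the 16175 tested genes were called higher and lower, 33.6% in all. CBS, SUOX, ETHE1 and TST did not pass. Without scaling between libraries, which moved the median of all tested genes from 0.01 to 0.07, 3647 of them were called higher and 2169 lower, against 2531 and 2901 with scaling. The 10 genes then had 3 higher (SUOX added) and 3 lower (AHCY lost). The median log2 fold change of the 10 was -0.07, against 0.01 for all tested genes, and the median size was 0.31 against 0.19. By limma's test against a change of 1.5-fold, 0 of the 10 passed (1 at an unadjusted p below 0.05, and 0 with voom on recovered fragments), against 0.804% of all genes (0.148% higher and 0.655% lower). The deposited FPKM values (fragments per kilobase of gene, scaled to library size) of the groups did not overlap for 8 of the 10, 3 higher and 5 lower, against 49.7% of all tested genes, 31.3% higher and 18.4% lower. Fold changes are on the scale of log2(FPKM + 0.1), after scaling of the libraries, and the quoted levels are FPKM as deposited.

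**Figure D1:**
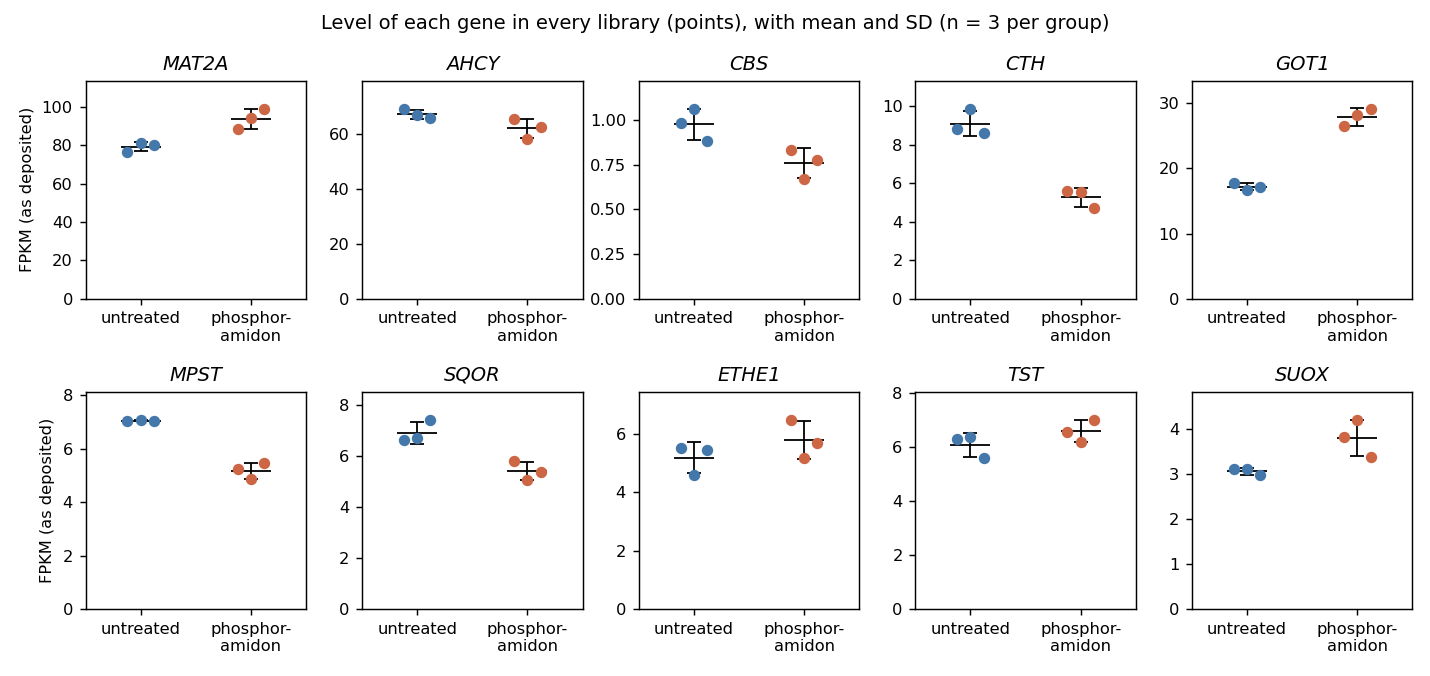
Deposited FPKM (vertical axes, each from 0) of the 10 genes in the 3 untreated (blue) and 3 phosphoramidon (orange) libraries, with the mean and SD of each group. The groups are apart for 8 genes and overlap for ETHE1 and TST.

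The libraries held 18690100 to 24919568 assigned fragments, recovered from the FPKM steps, and 1 fragment on 1 kb of gene was worth 0.0401 to 0.0535 FPKM. The smallest p that 3 against 3 libraries allows is 0.1. The total had an exact permutation p of 0.4 between groups (adjusted p = 0.6), and the number of genes reaching 10 fragments had an exact permutation p of 0.9 (adjusted p = 0.9). The 10 highest genes took 12.1 ± 0.614% of fragments in untreated and 10.3 ± 0.188% in phosphoramidon libraries (SD, n = 3, exact permutation p = 0.1, adjusted p = 0.3). Of 13 proximal tubule markers, 12 were below 1 FPKM in all libraries, with SLC22A6 and SLC22A8 at 0, and only GGT1 reached it, so the labelled cell type is hardly marked by these genes. Their summed level was 1.19 to 1.64 FPKM in untreated and 0.792 to 1.02 FPKM in phosphoramidon libraries. Of 5 epithelial markers, 4 were above 1 FPKM (CDH1 was not), and their sum was 327.9 to 365 FPKM against 200.3 to 215 FPKM. Of 5 fibroblast markers, only COL1A1 and LUM were above 1 FPKM, and the sum was 60.9 to 65.7 FPKM against 23.5 to 24.9 FPKM. Of the distal nephron markers found, 1 of 5 (SCNN1A) was above 1 FPKM, with a sum of 5.06 to 6.21 FPKM against 2.70 to 2.85 FPKM, and of 3 podocyte markers 1 (PODXL), with 0.503 to 0.618 FPKM against 1.32 to 1.48 FPKM. The 3 endothelial and 3 leukocyte markers were all below 1 FPKM. These sums move with the groups, and their part in the results below was not tested. In bulk RNA, fewer cells of a type and less RNA per cell cannot be told apart.

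MAT2A encodes the methionine adenosyltransferase of most tissues outside the liver. It is ENSG00000168906, at chr2:85539165-85545280 on GRCh38. It was the most abundant of the 10 genes, at the 97.7th percentile of tested genes in untreated cells. Its level was 76.6, 81.4 and 80.4 FPKM in untreated replicates 1 to 3 and 88.4, 94.6 and 98.8 FPKM in phosphoramidon replicates 1 to 3. All treated libraries lay above all untreated ones, and the gap was small next to the level. The mean rose from 79.5 ± 2.5 to 93.9 ± 5.23 FPKM (± SD over n = 3 libraries, as for all means given). limma put the log2 fold change at 0.17 ± 0.04 (SE, adjusted p = 0.0159). Leaving out phosphoramidon replicate 2 ended the call (log2 fold change 0.17, adjusted p = 0.0535), as did a plain variance prior (adjusted p = 0.0652). In GENCODE 29, 558 exonic bases of MAT2A (12.4%) are shared with GGCX on the opposite strand, which reached at most 12.5 FPKM. Whether counting used strand is not given in the sources used here.

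AHCY, adenosylhomocysteinase, is ENSG00000101444, at chr20:34280268-34311802. It stood at 68.9, 67.1 and 65.6 FPKM in the untreated libraries and at 65.4, 58.3 and 62.4 FPKM after phosphoramidon. The highest treated library nearly reached the lowest untreated one, so the groups were barely apart. The mean fell from 67.2 ± 1.65 to 62.0 ± 3.57 FPKM. limma put the log2 fold change at -0.19 ± 0.05 (SE, adjusted p = 0.0244). The call ended when untreated replicate 1 was left out (adjusted p = 0.0709), or phosphoramidon replicate 2 (adjusted p = 0.0864) or phosphoramidon replicate 3 (adjusted p = 0.0609). It also ended in the values without scaling between libraries (log2 fold change -0.12, adjusted p = 0.0819), where the median of all tested genes was 0.07, with a plain variance prior (adjusted p = 0.0808) and without a filter on low values (adjusted p = 0.0845). Within each library, the ratio of MAT2A to AHCY was 1.11 to 1.225 in untreated cells and 1.35 to 1.62 after phosphoramidon.

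CBS, cystathionine beta-synthase, commits homocysteine to cysteine and is ENSG00000160200, at chr21:43053191-43076943. It was the lowest of the 10 genes. Its level was 0.985, 1.06 and 0.885 FPKM in untreated and 0.836, 0.668 and 0.776 FPKM in phosphoramidon libraries, from 149 to 175 and 103 to 113 fragments. The groups did not overlap, with a narrow gap. The log2 fold change was -0.39 ± 0.13 (SE), with a 95% interval from -0.70 to -0.08 and adjusted p = 0.0546, just outside the threshold. It passed without phosphoramidon replicate 1 (adjusted p = 0.0496), with voom (adjusted p = 0.00805) and with 3 other settings, out of 15 alternatives. GRCh38 also holds a near-identical copy, CBSL (ENSG00000274276, at chr21:6444869-6468040). It was listed with 0, 3 and 3 fragments in untreated and 1, 1 and 2 in phosphoramidon libraries. A CBS transcript of 2453 bases differs from a transcript of the copy at 1 base. Fragments from CBS can thus map to both places, and how the authors' counting treated them is not given in the sources used here, so the level of CBS is uncertain.

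CTH, cystathionine gamma-lyase, releases cysteine from cystathionine and is ENSG00000116761, at chr1:70411218-70439851. Its level was 8.82, 9.83 and 8.61 FPKM in untreated and 5.59, 5.54 and 4.70 FPKM in phosphoramidon libraries. Every treated library lay far below every untreated one. The mean fell from 9.09 ± 0.653 to 5.27 ± 0.497 FPKM. limma put the log2 fold change at -0.85 ± 0.08 (SE, adjusted p = 0.000157). Only 2.16% of tested genes had a fold change at or below that of CTH. The call was kept in all 15 alternatives, with log2 fold changes from -0.90 to -0.75. The ratio of CTH to CBS was 8.95 to 9.74 in untreated and 6.06 to 8.28 in phosphoramidon libraries. In mean FPKM, CTH was number 4 of the 10 genes in untreated cells and number 7 after phosphoramidon, where its range overlapped those of its neighbours SQOR and MPST.

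**Figure D2:**
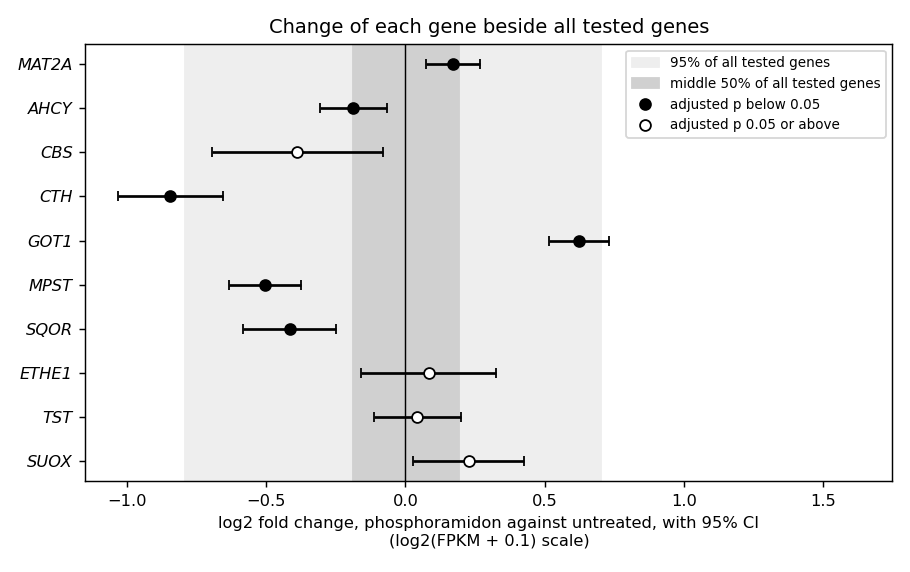
Log2 fold change (horizontal axis, phosphoramidon against untreated, log2(FPKM + 0.1) scale) of each gene with its 95% interval, filled where limma's adjusted p is below 0.05. The dark band spans the middle 50% of all tested genes (-0.19 to 0.19) and the light band 95% of them (-0.79 to 0.70). CTH lies below the light band, and GOT1 lies inside it near its upper edge.

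GOT1, the cytosolic aspartate aminotransferase, is ENSG00000120053, at chr10:99396870-99431569, with the promoter window shown above. Besides its place in the malate-aspartate shuttle it can transaminate cysteine to 3-mercaptopyruvate. Its level was 17.8, 16.7 and 17.1 FPKM in untreated and 26.4, 28.1 and 29.1 FPKM in phosphoramidon libraries. The groups were widely apart and each was tight. The mean rose from 17.2 ± 0.525 to 27.9 ± 1.33 FPKM. limma put the log2 fold change at 0.62 ± 0.05 (SE, adjusted p = 5.12e-05), at the 96.4th percentile of tested genes. The call held in all 15 alternatives (log2 fold change 0.59 to 0.69). GOT2, the mitochondrial form, had a log2 fold change of 0.05 and was not called. The ratio of GOT1 to GOT2 was accordingly 0.379 to 0.395 in untreated and 0.535 to 0.612 in phosphoramidon libraries. In GENCODE 29, 651 exonic bases of GOT1 are shared with the opposite-strand RNA AL391684.1, which reached at most 0.222 FPKM. The GOT1 length that gave whole fragments was 2424 bases, against 3369 in GENCODE 29. The annotation used may thus lack this overlap.

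MPST, mercaptopyruvate sulfurtransferase, takes the sulfur of 3-mercaptopyruvate as a persulfide and is ENSG00000128309, at chr22:37019635-37029822. Its level was 7.03, 7.07 and 7.03 FPKM in untreated and 5.24, 4.87 and 5.46 FPKM in phosphoramidon libraries. The untreated libraries hardly differed from each other, and all treated ones lay below them. The mean fell from 7.04 ± 0.0235 to 5.19 ± 0.299 FPKM. limma put the log2 fold change at -0.51 ± 0.06 (SE, adjusted p = 0.000312). The call held in all 15 alternatives (-0.53 to -0.44). GOT1 and MPST, successive steps of the same route, therefore moved in opposite directions in these libraries.

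TST, the thiosulfate sulfurtransferase also called rhodanese, is a relative of MPST and its neighbour. It is ENSG00000128311, at chr22:37010859-37020183, on the opposite strand, and the 2 genes share 6 exonic bases at their starts. TST stood at 6.30, 6.38 and 5.58 FPKM in untreated and at 6.56, 6.20 and 6.999 FPKM in phosphoramidon libraries, and the groups overlapped. The log2 fold change was 0.04 ± 0.07 (SE), with a 95% interval from -0.11 to 0.20 (adjusted p = 0.675). The interval of MPST, from -0.63 to -0.38, does not reach that of TST. Within each library, the ratio of MPST to TST was 1.11 to 1.26 in untreated cells and 0.780 to 0.799 after phosphoramidon, so MPST was above TST in every untreated library and below it in every treated one.

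SQOR, sulfide:quinone oxidoreductase, starts mitochondrial sulfide oxidation and is ENSG00000137767, at chr15:45631148-45691294. Its level was 6.63, 6.69 and 7.40 FPKM in untreated and 5.80, 5.08 and 5.35 FPKM in phosphoramidon libraries, with no overlap. The mean fell from 6.90 ± 0.429 to 5.41 ± 0.367 FPKM. limma put the log2 fold change at -0.42 ± 0.07 (SE, adjusted p = 0.00293). The call held in all 15 alternatives (-0.47 to -0.35). In GENCODE 29, SQOR shares 881 exonic bases (28.5%) with AC090527.2 on the same strand, a gene that has no values in these data. The SQOR length that gave whole fragments was 2941 bases, against 3088 in GENCODE 29. That difference is smaller than the overlap, so it does not tell whether the overlap holds in the annotation used.

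ETHE1, the persulfide dioxygenase that follows SQOR, is ENSG00000105755, at chr19:43506719-43527244. It stood at 5.51, 4.58 and 5.45 FPKM in untreated and at 6.46, 5.17 and 5.69 FPKM in phosphoramidon libraries, with overlapping groups. Its log2 fold change was 0.08 ± 0.11 (SE), with a 95% interval from -0.16 to 0.33 (adjusted p = 0.587). The ratio of ETHE1 to SQOR was 0.685 to 0.832 in untreated and 1.02 to 1.11 in phosphoramidon libraries.

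SUOX, the molybdenum enzyme sulfite oxidase, closes the route and is ENSG00000139531, at chr12:55997180-56006641. Its level was 3.12, 3.11 and 2.98 FPKM in untreated and 3.81, 4.20 and 3.39 FPKM in phosphoramidon libraries. All treated libraries lay above the untreated ones, with a wider spread among them. The log2 fold change was 0.23 ± 0.09 (SE), with a 95% interval from 0.03 to 0.43 and adjusted p = 0.0796. It passed without phosphoramidon replicate 3 (0.31, adjusted p = 0.0211), in the values without scaling (0.30, adjusted p = 0.0274), with voom (adjusted p = 0.026) and with at least 50 fragments in every library (adjusted p = 0.0466), and not in the other 11 alternatives.

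**Figure D3:**
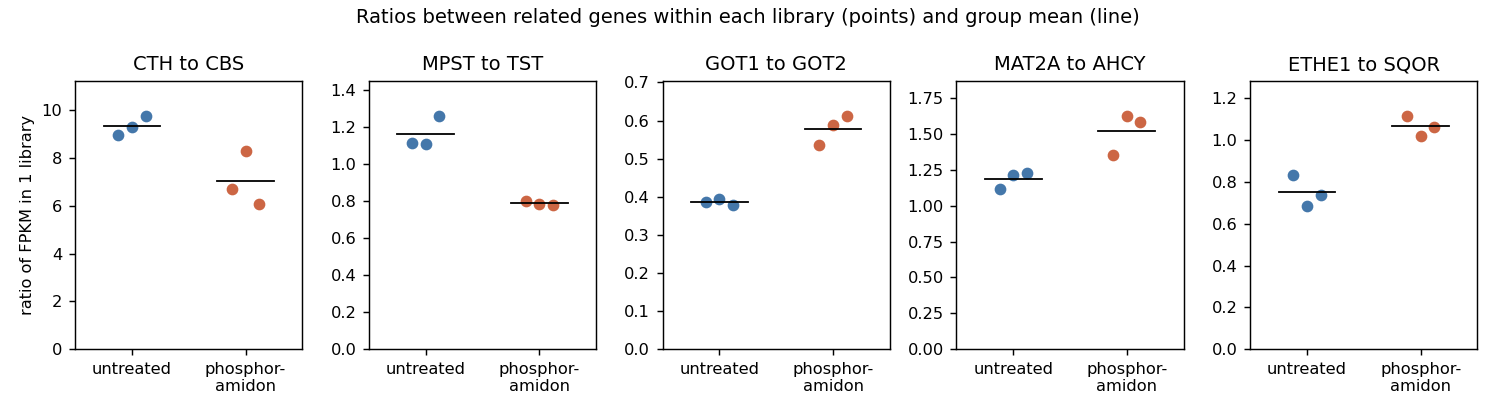
Ratio of the deposited FPKM of paired genes within 1 library (vertical axes, each from 0), with points for libraries and a line for the group mean. The groups do not overlap in any of the 5 ratios, and the ratio of MPST to TST crosses 1.

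**Figure D4:**
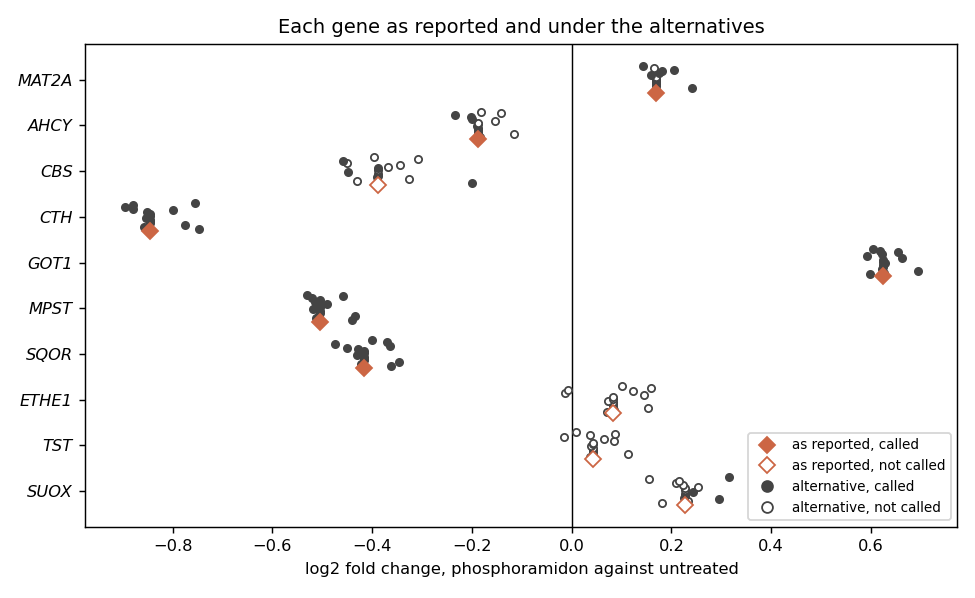
Log2 fold change (horizontal axis) of each gene as reported (diamonds) and under 15 alternatives (circles), filled where the adjusted p is below 0.05. CTH, MPST, SQOR and GOT1 are filled throughout, and only ETHE1 and TST cross 0.

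These 5 ratios need no scaling between libraries. They were chosen after the values of the genes were known. In all 5 the groups did not overlap, which gives an exact two-sided permutation p of 0.1 (adjusted over the 5, p = 0.1), the smallest that 3 against 3 allows. For MAT2A to AHCY this was fixed beforehand, since every treated library lay above the untreated ones for MAT2A and below them for AHCY. The other ratios also restate changes given above, so these p-values add no support of their own. How often other gene pairs separate was not counted. In levels per length, MAT2A, AHCY and GOT1 were the 3 highest genes and SUOX and CBS the lowest 2 in both groups. Between them, untreated cells had the order CTH, MPST, SQOR, TST and ETHE1, in which only the neighbours MPST and SQOR overlapped. After phosphoramidon the order was TST, ETHE1, SQOR, CTH and MPST, with overlap between all neighbours.

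The genes around the route were taken from 9 further lists of 112 genes, chosen with earlier results of these libraries known. Of these, 100 were tested, 16 higher and 32 lower, to be read beside 15.6% and 17.9% of all tested genes. The other 12 had at most 10 fragments in any library. They included MAT1A, the liver form of methionine adenosyltransferase, the homocysteine methyltransferases BHMT and BHMT2, the glycine methyltransferase GNMT, cysteine dioxygenase CDO1 and D-amino acid oxidase DAO, which makes 3-mercaptopyruvate from D-cysteine. Values in parentheses below are log2 fold changes of genes that passed limma's test unless stated otherwise.

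Cysteine can also be imported. Of 8 tested genes for uptake of cystine, cysteine and methionine, 3 were lower and 0 higher (1 at an unadjusted p below 0.05, 1 with voom and 1 without scaling). SLC7A11, the cystine-glutamate exchanger, fell to 2.24 ± 0.217 from 5.65 ± 0.443 FPKM (-1.37). It was 1 of 106 genes lower past 1.5-fold. Its heavy chain SLC3A2 (-0.54) and the large neutral amino acid transporter SLC7A5 (-0.42), which carries methionine, fell too. The median log2 fold change of the 8 was -0.0029.

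Serine for CBS and methyl groups for homocysteine come from the folate and serine enzymes, and there 8 of 12 tested genes were lower and 2 higher, and the median fold change was -0.30 on the log2 scale. The mitochondrial folate dehydrogenase ALDH1L2 fell from 3.13 ± 0.0966 to 1.24 ± 0.224 FPKM (-1.35). Like SLC7A11, ALDH1L2 was lower past 1.5-fold (adjusted p = 0.0151 by limma's test against 1.5-fold). The serine synthesis enzymes PSAT1 (-0.70) and PSPH (-0.69) fell, as did PHGDH (-0.33), named here after its values were seen, and the serine hydroxymethyltransferase SHMT2 (-0.48). Thymidylate synthase TYMS (0.33) rose.

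Among methionine cycle partners, 1 of 9 tested genes was higher and 0 lower (0 lower also at an unadjusted p below 0.05 and with voom). AHCYL2, a relative of AHCY, rose (0.33), a call that ended without the filter on low values (adjusted p = 0.0509). Among those not called, named after their values were seen, were methionine synthase MTR (-0.05), its reductase MTRR (-0.09) and METTL16 (0.05), the RNA methyltransferase that acts on MAT2A transcripts. In methionine salvage and polyamine synthesis, 2 of 10 were higher and 3 lower, and 3 higher and 2 lower without scaling. The dioxygenase ADI1 (0.40) and the ornithine decarboxylase ODC1 (0.25) rose, and spermidine synthase SRM (-0.52), the acetyltransferase SAT1 (-0.27) and spermine synthase SMS (-0.18) fell. The SMS call ended without untreated replicate 1 or 3, or phosphoramidon replicate 2 or 3 (adjusted p from 0.072 to 0.114), and also without scaling (-0.11, adjusted p = 0.114).

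Among genes that use cysteine, 2 of 12 were higher and 4 lower, but 5 higher and 3 lower without scaling, so which direction had more calls depends on the scaling. Both subunits of glutamate-cysteine ligase, the first step of glutathione synthesis, rose: GCLM from 16.1 ± 0.478 to 22.5 ± 0.651 FPKM (0.41) and GCLC from 3.45 ± 0.231 to 5.19 ± 0.226 FPKM (0.51). Glutathione synthetase GSS (-0.20), the oxoprolinase OPLAH (-0.86) and the cysteinyl-tRNA synthetases CARS1 (-0.37) and CARS2 (-0.56) fell. CARS2, the mitochondrial one, is also known to make cysteine persulfides. The GSS call ended without untreated replicate 1 or phosphoramidon replicate 2 (adjusted p from 0.0517 to 0.0592), and also without scaling (-0.13, adjusted p = 0.0502).

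Among rhodanese, persulfide and thiol partners, 3 of 14 were higher and 3 lower, and 4 higher and 3 lower without scaling. Thioredoxin reductase TXNRD1 rose from 31.6 ± 0.863 to 55.1 ± 0.495 FPKM (0.73), while its substrate thioredoxin, TXN (-0.24), the mitochondrial TXN2 (-0.32) and the methanethiol oxidase SELENBP1 (-0.25) fell. The glutaredoxin GLRX5 (0.21) and the rhodanese-domain gene TSTD1 (0.28) rose. The TSTD1 call had an adjusted p of 0.0499 and was lost in 10 of 15 alternatives. It ended without any 1 library other than untreated replicate 1 (adjusted p from 0.0843 to 0.149).

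For coenzyme Q, the electron acceptor of SQOR, 2 of 13 tested genes were higher and 2 lower, and 2 higher and 1 lower without scaling. PDSS2 (0.34), a subunit of the enzyme that makes the side chain, and the kinase-like COQ8A (0.22) rose, and COQ8B (-0.36) and COQ10B (-0.18) fell. The COQ8A call ended without untreated replicate 2 or 3, or phosphoramidon replicate 1 or 2 (adjusted p from 0.0608 to 0.103). That of COQ8B ended without untreated replicate 1, or phosphoramidon replicate 2 or 3 (0.0558 to 0.0713), and that of COQ10B without untreated replicate 2 or 3, or phosphoramidon replicate 1 or 3 (0.0693 to 0.0812). The COQ10B call also ended without scaling (-0.11, adjusted p = 0.15).

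Around SUOX, 4 of 12 genes for sulfite, sulfate and the molybdenum cofactor were higher and 4 lower. Without scaling, 5 were higher and 3 lower. The pair of enzymes that activate sulfate split, with PAPSS1 higher (0.16) and PAPSS2 lower, from 32.1 ± 0.242 to 24.1 ± 1.51 FPKM (-0.48). The phosphatases of the used sulfate donor split as well, with BPNT1 lower (-0.34) and BPNT2 higher (0.26). The sulfate transporters SLC26A1 (-0.43) and SLC26A2 (-0.23) fell. MOCS1 (0.26) and GPHN (0.23), which make the cofactor that SUOX needs, rose. The GPHN call ended without any 1 library other than untreated replicate 3 (adjusted p from 0.0689 to 0.129), and the MOCS1 call without any other than untreated replicate 1 (0.0527 to 0.107). The PAPSS1 call ended without untreated replicate 2, or phosphoramidon replicate 1 or 2 (0.0716 to 0.0781), and the SLC26A2 call without untreated or phosphoramidon replicate 1 or 2 (0.0505 to 0.0676). The SLC26A2 call also ended without scaling (-0.16, adjusted p = 0.0955).

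Among 10 regulators, 5 were lower and 0 higher (0 higher also at an unadjusted p below 0.05, with voom and without scaling, where 4 were lower). ATF4, the transcription factor of the amino acid response, fell from 118.8 ± 3.42 to 87.3 ± 2.40 FPKM (-0.51). The coactivator PPARGC1A (-0.69), the NRF2 inhibitor KEAP1 (-0.30), the pseudokinase TRIB3 (-0.21) and CEBPB (-0.30), a partner of ATF4, fell too. The CEBPB call ended without untreated replicate 2 or 3, or phosphoramidon replicate 1 or 2 (adjusted p from 0.0756 to 0.102), and also without scaling (-0.23, adjusted p = 0.108). NFE2L2, which encodes NRF2, was not called (-0.02) and is named after its value was seen.

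**Figure D5:**
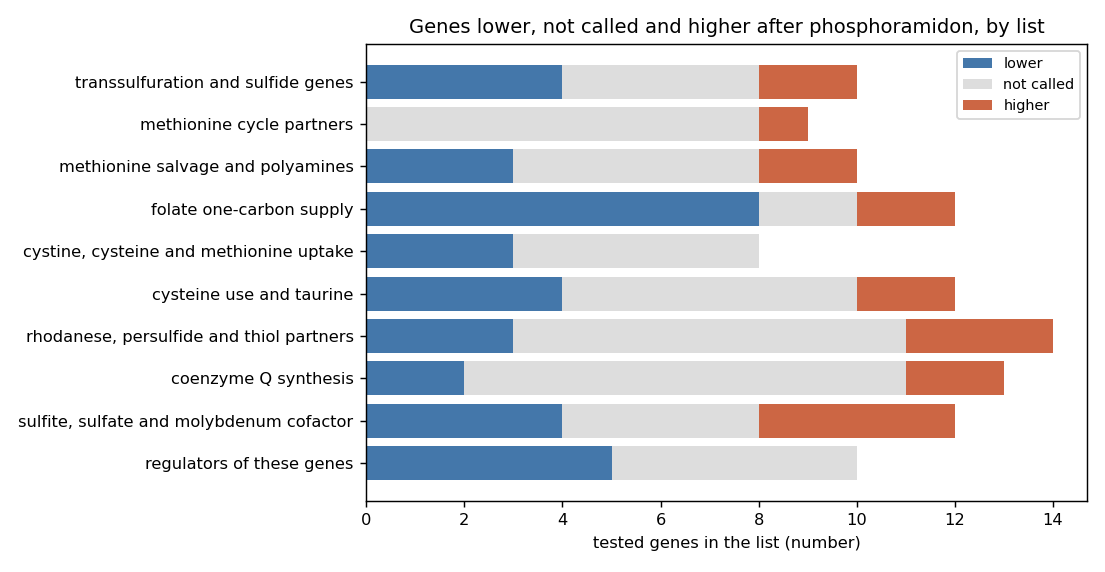
Number of tested genes (horizontal axis) that were lower (blue), not called (grey) or higher (orange) by limma at adjusted p below 0.05, in the 10 sulfur genes (top) and the 9 further lists. Folate one-carbon supply had 8 lower genes of 12, and uptake and regulators had no higher ones.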

How the data were processed

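HK-2 libraries from untreated (n = 3) and phosphoramidon-treated (n = 3) cells were compared, grouped by the treatment label. The deposited values are FPKM per gene. Of tools, the submitters' processing notes list HISAT2 2.1.0, Trimmomatic 0.38, DESeq2 1.22.1, featureCounts 1.6.0, MultiQC, FastQC and CASAVA, and as build GRCh38, without saying what each did. For the annotation, strand use and read pairing, nothing is given in these sources. FPKM times merged exon length (GENCODE 29) gave whole fragments within 0.05 in every library for 79.2% of 34623 genes above 0. For the others, SQOR, ETHE1, TST, MAT2A and GOT1 included, a length giving whole fragments was searched, so this is no check on those lengths. Scaling factors were trimmed means of M values (30% of M and 5% of A trimmed) over genes with at least 10 fragments in at least 3 libraries, the 16175 genes tested. limma 3.58.1 (R 4.3.3) was fitted to log2(FPKM + 0.1) with group alone, a trended and robust prior and Benjamini-Hochberg adjustment over all tested genes at 0.05, and treat tested against 1.5-fold. The procedure was also run on simulated counts in which few genes were changed, with directions drawn at random. These counts do not test the scaling where many genes change, as here. Symbols came from a gene name table (28941 IDs) and otherwise GENCODE 29, whose GRCh38 coordinates are printed. Promoters are from RefSeq.

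All 10 sulfur genes are named. From each further list the text gives up to 4 called genes with the lowest adjusted p, and all called genes of a direction where there are 5 or fewer, with exceptions marked. The result of 1 called gene is not reported here. The genes, lists and tests were chosen with earlier results of these data known. Alternatives were pseudocounts of 1 and 0.01, no scaling, median-of-ratios factors, no filter, at least 50 fragments in every library, voom on recovered fragments, a replicate block, a plain variance prior, and each library left out in turn.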

Additional observations from a re-analysis of the deposited data

How the results depend on the processing

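CTH, MPST, SQOR and GOT1 were called in the same direction in all 15 alternatives (9 other settings and 6 fits without 1 library). CBS was called in 5, AHCY in 9, MAT2A in 13 and SUOX in 4 of them, each in 1 direction throughout. ETHE1 and TST were called in none, and their sign turned: ETHE1 to -0.014 without untreated replicate 2 and to -0.0066 without phosphoramidon replicate 1, and TST to -0.015 without untreated replicate 3. Without 1 library their highest values were 0.16 and 0.086. Of the 10 genes, 1 was higher with a plain variance prior, against 2. Without 1 library, 1 to 3 were higher and 3 to 5 lower. Over all tested genes, 1543 were called higher without a filter on low values, against 2531. Past 1.5-fold, 24 genes were higher and 106 lower. These counts were 11 and 57 with a pseudocount of 1, 12 and 51 without the filter, and 69 and 204 with voom, and 38 were higher without scaling. Leaving out 1 library gave 13 to 22 higher and 68 to 115 lower. Of 48 called genes in the further lists, 36 kept their call wherever they were tested, 12 lost it at least once and 0 reversed. With all libraries kept, 11 of the 48 lost it without the filter, 7 with a plain variance prior, 5 without scaling and 1 each with voom and with median-of-ratios factors (TSTD1 in both).

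The labels number replicates alike in both groups. Correlations of deviations from the group means were 0.11, -0.02 and -0.01 for same-numbered libraries. For differently numbered libraries they ran from -0.10 to 0.12. With 3 libraries per group, these values cannot decide whether same-numbered libraries share a batch or culture. With the replicate block, 2 of the 10 genes were higher and 4 lower, as reported, and 3 of the 48 further calls were lost (GPHN, MOCS1 and TSTD1).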
